A study of Mus musculus with 13 samples.

Results

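Glycolysis, glycogen turnover and the citric acid cycle are represented here by 42 genes of glucose metabolism, chosen by a list of symbols that were mapped to the Ensembl genes of the table. All 42 were found among its 16382 genes, and all 42 passed the filter on low counts. The cells were C2C12 myotubes, which form when myoblasts of a mouse line derived from skeletal muscle fuse in low-serum medium. Palmitoylethanolamide (PEA), a lipid amide of palmitic acid, was given at 10 μM from day 8 of differentiation, control myotubes (CON) received the DMSO vehicle, and RNA was collected 24 h later. There were 6 CON and 6 PEA libraries, all of 1 unmodified cell line in culture. The study used duplicate wells (technical replicates) in each repeat of the experiment, so the 6 libraries of a group come from fewer than 6 independent repeats. The labels do not say which libraries share a repeat. The tests therefore treat the libraries as separate, and p-values and SDs measure the spread between libraries, which is in part technical.

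Glycolysis splits glucose into pyruvate in the cytosol. Pyruvate is then reduced to lactate by lactate dehydrogenase, or enters mitochondria, where the pyruvate dehydrogenase complex turns it into the acetyl group that citrate synthase feeds into the citric acid cycle. Muscle stores glucose as glycogen and releases it through glycogen phosphorylase during contraction. Several steps are carried out by isoenzymes from separate genes, of which a muscle form rises as myoblasts mature while a ubiquitous form is present in most cells.

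Libraries held 12354845 to 50397444 estimated counts, with CON replicate 1 the deepest. Values below are the deposited normalized counts, that is estimated counts over the size factor of their library. A gene is called when its adjusted p-value in edgeR's quasi-likelihood test (Benjamini-Hochberg over all 13142 genes tested) is below 0.05. Levels of the myotube markers ranged widely in CON, from 22.05 for Ckmt2 (mitochondrial creatine kinase) to 56800 for Acta1 (skeletal α-actin, 48380 in PEA). Myog, myogenin, was at 12260 in CON and 10710 in PEA. Ckm, muscle creatine kinase, was at 661.9 and 544.4, Pax7, of muscle progenitors, at 114.3 and 111.3, and Pdgfra, of fibroblasts, at 677.3 and 806.7 (adjusted p = 0.106). Of 5 fibroblast markers tested, Dcn, a matrix proteoglycan, was called higher (2537 and 3544, log2 fold change 0.48, adjusted p = 0.0439). The others ranged from -0.77 for Lum to 0.25 for Pdgfra, and Col3a1, a collagen, had the highest level at 63330 and 58320. The leukocyte marker Ptprc was near 0, at 0.3191 and 0.8426, and the adipocyte marker Adipoq was not analysed here.

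Of the 42 genes, 5 were lower in PEA and none was higher by the test. The genes that fell were Pgam2 (phosphoglycerate mutase, muscle form), Pygm (glycogen phosphorylase, muscle form), Aldoa (aldolase A), Gapdh (glyceraldehyde-3-phosphate dehydrogenase) and Pdhb (β subunit of pyruvate dehydrogenase). These 5 are 11.9% of the list, beside 4.74% of all genes tested that were called lower and 6.31% that were called higher. This list and the other gene lists used here were chosen with earlier results of these data known. Their shares beside those of all genes are therefore descriptive and not tests. The median log2 fold change of the 42 genes was -0.12, beside 0.01 over all genes tested. The estimate was below zero for 36 of the 42 genes (85.7%), compared with 48.7% of all genes. At an unadjusted p below 0.05 there were 18 lower and 2 higher genes of the 42, beside 13.1% of all genes lower and 14.3% higher at that threshold. Most differences were small, and the plot of fold changes by role shows Pgam2 apart from the rest.

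**Figure D1:**
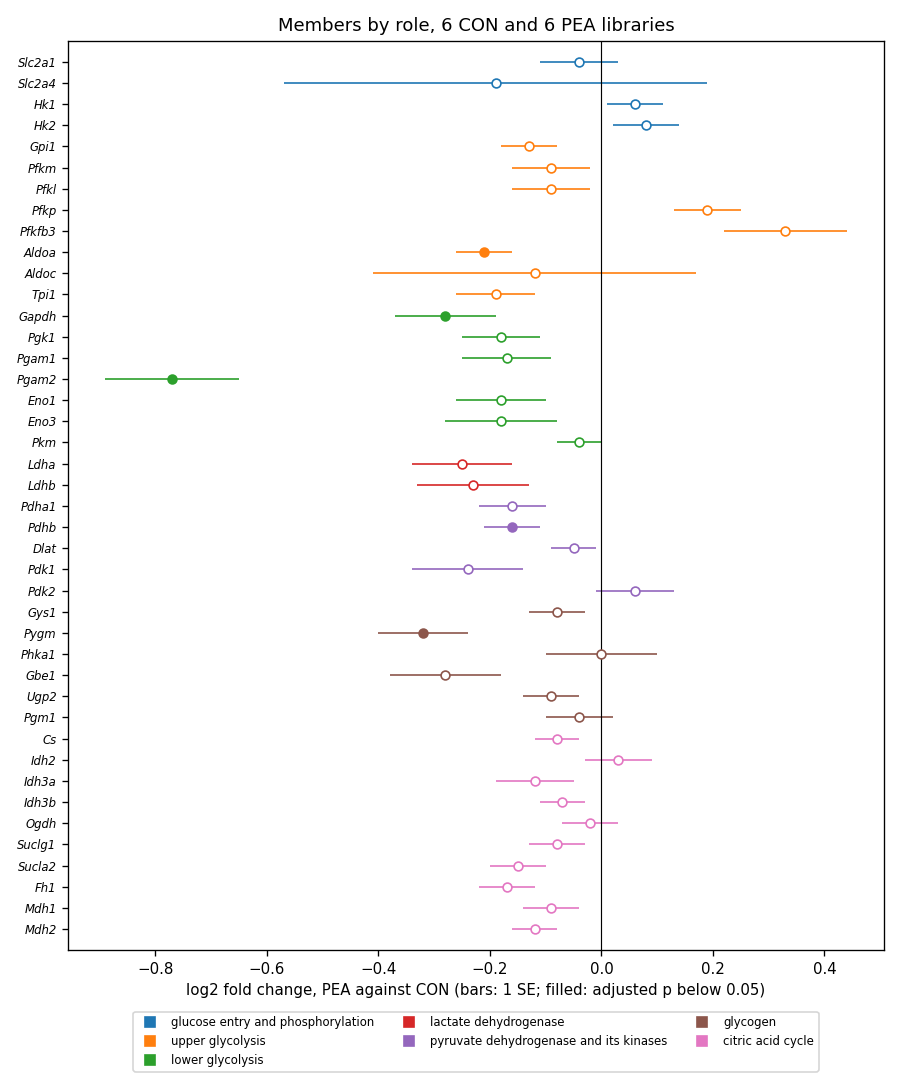
Log2 fold change of PEA against CON (x axis) for each of the 42 genes (y axis), coloured by role, with bars of 1 SE and filled points for an adjusted p below 0.05. Of the points, 36 lie left of zero, and Pgam2 lies farthest left at -0.77.

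The change in Pgam2 was the largest of the list. The enzyme moves the phosphate group of phosphoglycerate in lower glycolysis, and this form prevails in mature skeletal muscle. Pgam2 (ENSMUSG00000020475, chromosome 11 in GRCm39) had normalized counts of 296.7 to 586.5 in CON, with a median of 429.6, and of 228.4 to 287.8 in PEA, with a median of 245.0. Every PEA library lay below every CON library, with CON replicate 4 the lowest and CON replicate 5 the highest of the controls. Of all genes tested, 1.81% were lower in PEA without overlap between the groups and 2.53% were higher without overlap, and Pgam2 was the only member among them. Its log2 fold change was -0.77 (SE 0.12, edgeR adjusted p = 0.0016), a decrease of the fitted level by 41.2%. Pgam2 was called without each library in turn, with log2 fold changes between -0.85 and -0.67. Dbnl, which shares exonic bases with Pgam2 on the other strand, had a log2 fold change of -0.13 (SE 0.04, adjusted p = 0.0682). The sources used here do not state whether counting used strand, so reads from the shared bases cannot be told apart.

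The promoter of Pgam2 is shown because it is the only member whose groups did not overlap, and that of the ubiquitous Pgam1 stands beside it for contrast. Each run holds the 250 bases before the RefSeq start on the gene's strand, from RefSeq on GRCm38.p6, and capitals mark E-boxes (CANNTG), the letters bound by MyoD-type factors. Pgam2 lies at chr11:5803797-5804046 on the minus strand, Pgam1 at chr19:41911621-41911870 on the plus strand, and Pygm at chr19:6384158-6384407 on the plus strand. The last of these, like the sequence of Pgam1, was chosen after its values were seen.
Pgam2: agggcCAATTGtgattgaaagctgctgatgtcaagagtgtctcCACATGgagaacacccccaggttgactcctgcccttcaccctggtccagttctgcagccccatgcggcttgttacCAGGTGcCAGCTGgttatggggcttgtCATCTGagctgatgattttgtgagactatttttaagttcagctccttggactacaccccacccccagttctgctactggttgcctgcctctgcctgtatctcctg
Pgam1: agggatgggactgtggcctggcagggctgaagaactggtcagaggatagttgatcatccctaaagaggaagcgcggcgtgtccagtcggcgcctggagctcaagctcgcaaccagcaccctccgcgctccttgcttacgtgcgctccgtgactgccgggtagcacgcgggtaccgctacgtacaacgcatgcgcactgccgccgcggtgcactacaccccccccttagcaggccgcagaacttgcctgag
Pygm: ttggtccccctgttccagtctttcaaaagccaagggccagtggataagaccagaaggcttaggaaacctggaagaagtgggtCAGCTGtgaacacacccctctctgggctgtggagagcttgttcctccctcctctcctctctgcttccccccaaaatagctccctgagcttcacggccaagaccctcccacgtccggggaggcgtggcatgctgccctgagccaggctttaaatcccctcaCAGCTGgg

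The Pgam2 promoter holds 5 E-boxes, at -245, -207, -132, -125 and -105 from the start. Of 32851 promoters of this length, 1.15% hold 5 or more, and Pgam2 is the only one of the members with as many. It also holds a match to the consensus of MEF2, a family of muscle transcription factors, at -80. That consensus, searched after the values were known, is found in 2.92% of promoters. The Pgam1 promoter has no E-box and 3 copies of the core of hypoxia response elements (ACGTG or GCGTG, either strand), while the Pygm promoter has 2 of each. Promoters were found for 40 of the 42 genes, some with several, and a gene counts when any of its promoters holds the motif in the 250 bases before the start. An E-box was present in 28 of them (70.0%), compared with 69.3% of all genes with a promoter, and a hypoxia core in 31 (77.5%) compared with 41.5%. Counted per promoter, an E-box was in 42 of 60 (70.0%, beside 66.2% of all promoters) and a hypoxia core in 44 (73.3%, beside 38.6%). The member promoters are also richer in G and C, with a median of 59.6% over 52.4% for all promoters. A match describes the letters in this window and not a bound site.

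Glucose entry showed no called gene in edgeR or DESeq2, and 0 of its 4 genes had an unadjusted p below 0.05. Slc2a1, the ubiquitous glucose transporter GLUT1, had a log2 fold change of -0.04 (SE 0.07). Slc2a4, the insulin-responsive transporter GLUT4, had few counts, with normalized counts of 4.864 to 19.32 in CON and 6.056 to 24.31 in PEA (log2 fold change -0.19, SE 0.38). The hexokinases, which trap glucose as its phosphate, had log2 fold changes of 0.06 for Hk1 (SE 0.05) and 0.08 for Hk2 (SE 0.06), the form enriched in muscle. The summed normalized counts of these 4 genes were 10790 to 11860 in CON and 11180 to 12220 in PEA, so the groups overlapped.

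In upper glycolysis the estimates went both ways, and 1 of 8 genes was called. Aldoa cleaves fructose bisphosphate and is the main aldolase of muscle. Its normalized counts were 30800 to 37850 in CON, with a median of 34620, and 28600 to 31300 in PEA, with a median of 29520. All 6 PEA libraries lay below the CON median and 4 below the lowest control, so the groups overlapped. Its log2 fold change was -0.21 (SE 0.05, adjusted p = 0.0242). Tpi1, which interconverts the triose phosphates, had -0.19 (SE 0.07, adjusted p = 0.0765) and Gpi1, glucose phosphate isomerase, -0.13 (SE 0.05, adjusted p = 0.127). Phosphofructokinase catalyses the committed step. Its muscle subunit Pfkm and liver subunit Pfkl each had a log2 fold change of -0.09 (SE 0.07 for both).

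The members with the largest estimates above zero were also in upper glycolysis, and neither passed the test. Pfkp encodes the platelet subunit of phosphofructokinase. Its normalized counts were 900.3 to 1004 in CON, with a median of 959.1, and 987.1 to 1279 in PEA, with a median of 1059. In 5 of 6 PEA libraries Pfkp was above the highest control, and its log2 fold change was 0.19 (SE 0.06, adjusted p = 0.0516). Pfkfb3 makes fructose 2,6-bisphosphate, an activator of phosphofructokinase. Its normalized counts were 170.3 to 257.1 in CON and 223.5 to 286.5 in PEA, with 2 PEA libraries above the highest control, CON replicate 3. The log2 fold change was 0.33 (SE 0.11, adjusted p = 0.061). Without CON replicate 3 it was 0.42 (adjusted p = 0.016), and DESeq2 called both genes (adjusted p = 0.043 for Pfkp and 0.0416 for Pfkfb3). Aldoc, the brain aldolase, was at 12.16 to 27.77 in CON and 11.1 to 26.51 in PEA.

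All 7 genes of lower glycolysis had estimates below zero, with a median of -0.18, and 2 of them, Pgam2 and Gapdh, were called. Gapdh oxidizes glyceraldehyde phosphate. Its normalized counts were 10840 to 16160 in CON, with a median of 11800, and 9785 to 11440 in PEA, with a median of 10270. CON replicates 3 and 6 were well above the other controls, and 4 PEA libraries lay below the lowest control. The log2 fold change was -0.28 (SE 0.09, adjusted p = 0.048). The other estimates were -0.18 for Pgk1 (SE 0.07, adjusted p = 0.116), -0.17 for Pgam1 (SE 0.08, adjusted p = 0.165) and -0.18 for both Eno1 and Eno3, the ubiquitous and muscle enolases (adjusted p = 0.133 and 0.255). Pkm, pyruvate kinase, had -0.04 (SE 0.04).

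Gapdh, Pgk1, Eno1, Gpi1 and Ldhb have near-identical copies elsewhere in the genome that the table lists (at least 95% identity over at least 200 bases), which can take reads from the parent gene in counting. The table holds 37 such copies of Gapdh elsewhere in the genome, and they carried 71.2% of the summed normalized counts of Gapdh and copies. Summed with its copies, Gapdh had a mean of 43870 in CON and 36950 in PEA, a log2 difference of -0.24 (two-sided exact permutation test, p = 0.00649), beside -0.27 for Gapdh alone on the same scale (p = 0.0173). For Eno1 the copies Eno1b and Gm4735 carried 88.8% of the sum, and the log2 difference moved from -0.18 (exact p = 0.0779) to -0.11 (exact p = 0.171). For Pgk1 the copies carried 62.9%, and the difference moved from -0.18 (exact p = 0.0563) to -0.13 (exact p = 0.0952). Adding the copies was decided after their number was seen, and the sums hold only copies in the table. Counting genes outside the table, 88 other genes matched Gapdh, 5 matched Eno1 and 3 matched Pgk1, so these sums are partial. Gpi1 has a copy that carried 31.9% of its sum, and its difference was -0.13 alone (exact p = 0.0411) and with the copy (exact p = 0.0238). For Ldhb the copy carried 19.8%, with -0.25 alone (exact p = 0.039) and -0.24 with it (exact p = 0.0216). The levels of these 5 genes given here are therefore levels of what the counting assigned to the parent gene. Aldoa, Pgam1, Pkm, Ldha and Cs also match 1, 2, 4, 3 and 1 other genes at that identity, none of them in the table. These may lie elsewhere or share the locus, and their reads could not be added.

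**Figure D2:**
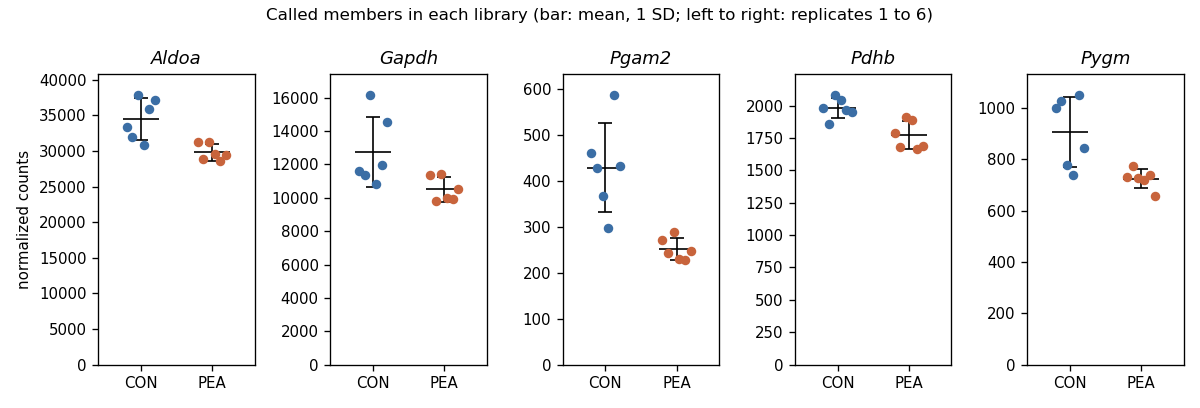
Normalized counts (y axis, from 0) of the 5 called genes in each CON and PEA library (points, replicates 1 to 6 from left to right), with the mean and 1 SD. Pgam2 libraries do not overlap between the groups, and those of the other 4 genes do.

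Both lactate dehydrogenase genes had estimates below zero and neither was called by edgeR, while DESeq2 called Ldha. Ldha, the form that prevails in fast muscle, had normalized counts of 23540 to 34960 in CON and 21630 to 26910 in PEA, with CON replicates 3 and 6 highest (log2 fold change -0.25, SE 0.09, adjusted p = 0.0705). For Ldhb, the heart form, the range was 294.8 to 374.2 in CON and 205.6 to 327.2 in PEA (-0.23, SE 0.10, adjusted p = 0.155).

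At the entry of pyruvate into mitochondria, 1 of 5 genes was called. Pdhb is a subunit of the first enzyme of the pyruvate dehydrogenase complex. Its normalized counts were 1860 to 2081 in CON, with a median of 1976, and 1667 to 1915 in PEA, with a median of 1740. The lowest control, CON replicate 2, lay below PEA replicates 3 and 4, and the other 4 PEA libraries were lower than all controls. The log2 fold change was -0.16 (SE 0.05, adjusted p = 0.0395). Pdha1, the partner subunit, had -0.16 (SE 0.06, adjusted p = 0.0775) and Dlat, the acetyltransferase core, -0.05 (SE 0.04). The kinases Pdk1 and Pdk2, which phosphorylate and inhibit the complex, had -0.24 (SE 0.10, adjusted p = 0.13) and 0.06 (SE 0.07).

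All 6 glycogen genes had estimates below zero, though that of Phka1 rounded to zero and turned above it in some alternatives, and Pygm was called. Its enzyme releases glucose phosphate from glycogen in muscle, and its lack causes McArdle disease. Pygm had normalized counts of 739.4 to 1050 in CON, with a median of 923.4, and of 656.4 to 772.3 in PEA, with a median of 729.3. CON replicates 1, 2 and 5 were the high controls, and 5 of 6 PEA libraries lay below the lowest control, CON replicate 4. The log2 fold change was -0.32 (SE 0.08, adjusted p = 0.021). Gbe1, the branching enzyme, had -0.28 (SE 0.10, adjusted p = 0.0939). Gys1, muscle glycogen synthase, had -0.08 (SE 0.05), and Ugp2, which makes its substrate, -0.09 (SE 0.05). Pgm1, phosphoglucomutase, had -0.04 (SE 0.06) and Phka1, the muscle α subunit of phosphorylase kinase, 0.00 (SE 0.10).

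No citric acid cycle gene was called by edgeR (3 of 10 were lower at an unadjusted p below 0.05, beside 13.1% of all genes), although 9 of 10 estimates were below zero, with a median of -0.09. Fh1, fumarase, had normalized counts of 2215 to 2858 in CON and 2085 to 2361 in PEA (-0.17, SE 0.05, adjusted p = 0.0562). Mdh2, mitochondrial malate dehydrogenase, was at 7541 to 8403 and 6989 to 7621 (-0.12, SE 0.04, adjusted p = 0.0628), with 5 PEA libraries below the lowest control. Sucla2, a subunit of succinyl-CoA ligase, was at 2660 to 3039 and 2339 to 2683 (-0.15, SE 0.05, adjusted p = 0.0639). DESeq2 called these 3 genes lower. Cs, citrate synthase, whose activity is a common measure of mitochondrial content, had -0.08 (SE 0.04, adjusted p = 0.196). Idh3a and Idh3b, subunits of isocitrate dehydrogenase, had -0.12 and -0.07, Suclg1 and Mdh1 -0.08 and -0.09, Ogdh, of the oxoglutarate dehydrogenase complex, -0.02, and Idh2 0.03, all with an adjusted p of at least 0.232.

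Pgam2 passed the threshold without each library in turn, and the other 4 calls were lost without some of them. Where calls were lost the log2 fold changes were -0.30 for Pygm, -0.20 to -0.18 for Aldoa, -0.30 to -0.20 for Gapdh and -0.16 to -0.14 for Pdhb. Pygm was lost without PEA replicate 6 (adjusted p = 0.0571). Aldoa was lost without CON replicate 5 or 6 or PEA replicate 2, 4, 5 or 6 (adjusted p between 0.0509 and 0.0634). Gapdh was lost without CON replicate 3, 5 or 6 or PEA replicate 2, 4, 5 or 6 (0.0618 to 0.113), and Pdhb without CON replicate 1, 3, 4, 5 or 6 or PEA replicate 1, 2, 5 or 6 (0.0544 to 0.0939). As few as 1 member (PEA replicate 6 left out) and as many as 12 (CON replicate 2 left out) were called lower. In those fits 2.16% and 7.35% of all genes were called lower. DESeq2 called 11 members lower and 2 higher, with 7.03% of all genes called lower and 7.48% higher by that tool. Without a filter on low counts Pdhb was not called (adjusted p = 0.0512), and with normalized counts in limma Gapdh was not (adjusted p = 0.053). In each case 4 members were called lower, beside 3.3% of all genes without the filter and 4.83% in limma.

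The control libraries differed among themselves in these genes. CON replicates 3 and 6 held the highest 2 values of the group for 18 of the 42 genes, among them Slc2a1, Aldoa, Tpi1, Gapdh, Pgk1, Pgam1, Eno1, Ldha and Pdk1. CON replicate 3 alone was the highest control for 21 genes, but with CON replicate 4 the lowest for Pfkm, Pgam2, Eno3, Pygm and 4 other genes. CON replicate 2 was the lowest control for 15 genes. Without CON replicates 3 and 6, an alternative added after these values were seen, 32 of 42 estimates were below zero with a median of -0.07. Pgam2 (-0.81, adjusted p = 0.00207) and Pygm (-0.40, adjusted p = 0.00923) were then called lower and Pfkfb3 (0.43, adjusted p = 0.0264) higher, while Aldoa (-0.14, adjusted p = 0.0992), Gapdh (-0.12, adjusted p = 0.197) and Pdhb (-0.15, adjusted p = 0.117) were not. The estimate of Pdhb was thus nearly as before, and that of Gapdh much nearer zero. Those of Ldha (-0.12), Tpi1 (-0.09), Pgam1 (-0.04), Eno1 (-0.08), Pdha1 (-0.09) and Gbe1 (-0.14) were also nearer zero than with all libraries. The summed normalized counts of all 42 genes were 275200 to 326700 in CON, highest in CON replicate 3, and 259900 to 285200 in PEA.

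Markers of myotubes and of dividing cells also differed between these libraries. Of 15 myotube markers, 14 (93.3%) had estimates below zero, beside 48.7% of all genes, with a median of -0.21. Of the 15 markers, 3 were called lower, compared with 4.74% of all genes, namely Mb (myoglobin, -0.87), Tnnt3 (fast troponin T, -0.33) and Myh8 (perinatal myosin, -0.74). Their summed normalized counts were 108300 to 171000 in CON and 110800 to 133500 in PEA, with CON replicates 1, 2 and 5 at 155900 or more and CON replicate 3 lowest. The 4 cell cycle genes among the myoblast markers (Cdk1, Mki67, Top2a and Ccnb1, set apart after their values were seen) were all called higher, with sums of 1848 to 4674 in CON and 4657 to 5609 in PEA. Of the other 6 myoblast markers, 5 had estimates below zero, and Id3 (-0.40, adjusted p = 0.0141) and Cdh15 (-0.25, adjusted p = 0.0444) were called lower. The part of these markers in the changes of Pgam2, Pygm and the other members was not tested, and in bulk RNA a smaller share of myotubes and less RNA of a gene per myotube cannot be told apart.

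Muscle forms were contrasted with a partner, either ubiquitous or named for another tissue (brain, heart, liver or platelets), in 10 pairs. The measure was the log2 ratio of their estimated counts within each library. In 2 pairs the ratio was lower in PEA. The ratio of Pgam2 to Pgam1 was -5.68 to -4.60 in CON and -5.82 to -5.65 in PEA, a mean difference of -0.58 (SE 0.17, two-sided exact permutation test, p = 0.00649, adjusted over the 10 pairs 0.0325). The ratio of Pygm to Pygb, the brain form of glycogen phosphorylase, was -0.54 to 0.11 in CON and -0.73 to -0.45 in PEA, a mean difference of -0.41 (SE 0.10, exact p = 0.00649, adjusted 0.0325). In each pair 4 of 6 PEA libraries lay below the lowest control, so the groups overlapped. Of the partners, Pgam1 had a log2 fold change of -0.17, and Pygb, at 970.1 to 1080 in CON and 1052 to 1196 in PEA, had 0.10 (SE 0.05, adjusted p = 0.207). Leaving out any single PEA library brought the adjusted p of both ratios to between 0.0649 and 0.108, while leaving out any single CON library kept it between 0.0216 and 0.0433.

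**Figure D3:**
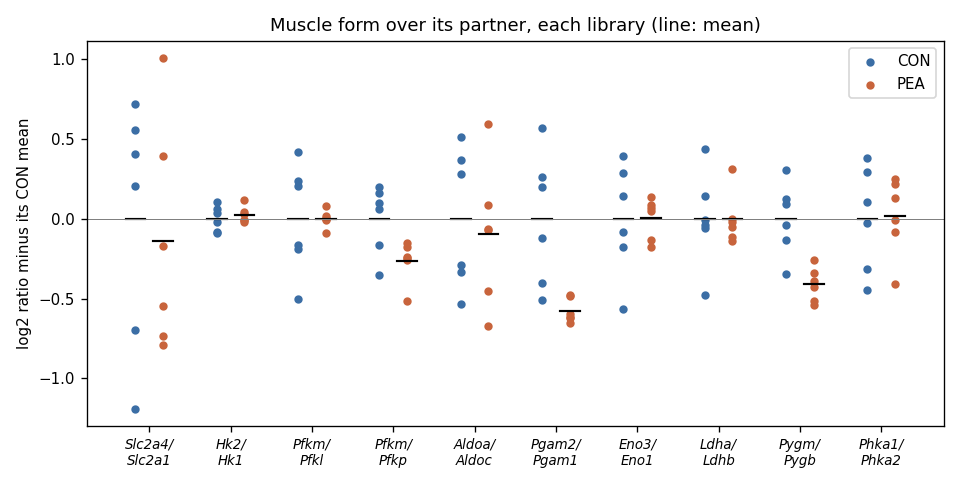
Log2 ratio of the muscle form to its partner in each library (points), minus the mean of the 6 CON libraries (y axis), for 10 pairs (x axis), with a line at each group mean. The PEA means of Pgam2/Pgam1 and Pygm/Pygb lie at -0.58 and -0.41, and the points of the groups overlap in every pair.

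The other 8 pairs did not pass the test. Pfkm to Pfkp differed by -0.26 (SE 0.10, exact p = 0.0368, adjusted 0.123). Hk2 to Hk1 differed by 0.02 (SE 0.04) and was the tightest of the pairs. Pfkm to Pfkl, Eno3 to Eno1 and Ldha to Ldhb differed by 0.00 (SE 0.14, 0.15 and 0.14), and Phka1 to Phka2 by 0.02 (SE 0.17). Slc2a4 to Slc2a1, with a rare muscle form, differed by -0.14 (SE 0.43), and Aldoa to Aldoc, with a rare partner, by -0.10 (SE 0.25). In these 7 pairs the adjusted p was 0.996.

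Per kb of exon, the pairs stood at very different balances in the control myotubes. The muscle form made up 99.9% of Aldoa and Aldoc, 98.8% of Ldha and Ldhb, 85.8% ± 1.88 (SD, n = 6) of Pfkm and Pfkp, and 69.8% ± 3.34 of Pygm and Pygb, the latter 63.5% ± 1.71 in PEA. It was 47.9% ± 5.91 for Pfkm and Pfkl, 38.6% ± 1.3 for Hk2 and Hk1, and 34.3% ± 5.09 for Phka1 and Phka2. Pgam2 made up 5.79% ± 1.56 of the mutase in CON and 3.85% ± 0.195 in PEA, and Slc2a4 0.333% ± 0.151 of its pair in CON. Divided by the longest transcript in place of merged exons, the CON share was 25.1% for Hk2, 60.9% for Pygm and 61.5% for Eno3 as counted, and the other shares moved by less than their SD. Eno3 made up 72.8% ± 4.92 of Eno3 and Eno1 as counted, but 23.9% ± 4.09 when the copies of Eno1 in the table were added. The order of the enolases thus turns on whether reads of these copies are added. With the copies, the ratio of Eno3 differed by -0.07 between the groups (exact p = 0.673).

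**Figure D4:**
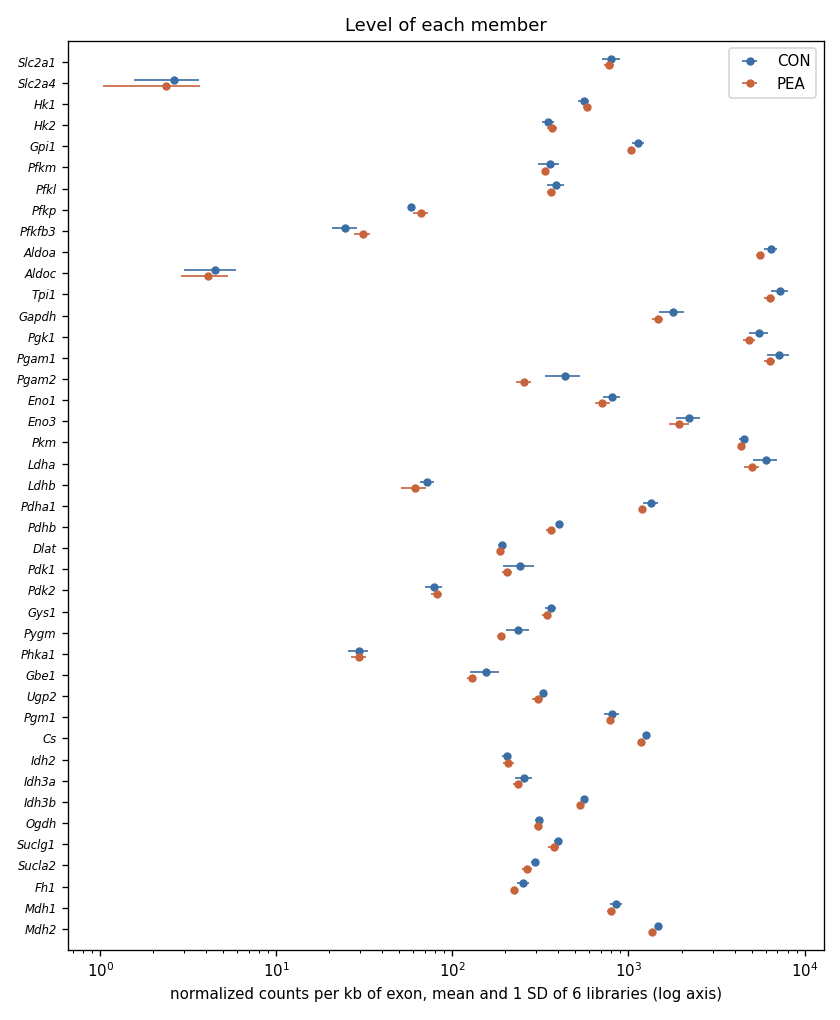
Normalized counts per kb of exon (x axis, log scale) of each of the 42 genes (y axis), as the mean and 1 SD of 6 CON and 6 PEA libraries. Levels run from 2.611 for Slc2a4 to 7252 for Tpi1 in CON, and most PEA points lie slightly left of their CON points.

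Per kb of merged exon and without copies, Tpi1 was the highest of the 42 genes in CON with 7252 ± 826.1 (SD, n = 6), beside 7169 ± 1033 for Pgam1 and 6413 ± 539.5 for Aldoa, and these neighbours did not differ beyond their spread. Ldha stood at 6006 ± 921.7, Pgk1 at 5524 ± 687.9 and Pkm at 4504 ± 235.8. This order depends on the counting and on the length used. With their copies in the table added, Pgk1 stood at 14680 ± 1639, above Tpi1. Eno1 then stood at 7060 ± 784.4, level with Tpi1 and Pgam1, and Gapdh at 6127 ± 710.5, level with Aldoa and Ldha. Per kb of the longest transcript Tpi1 was still the highest at 12400, but Aldoa (11910), Pkm (9151) and Ldha (9000) lay above Pgam1 (8205). The citric acid cycle genes lay lower, from 203.7 ± 12.65 for Idh2 to 1480 ± 58.78 for Mdh2. Among glycogen genes Pgm1 was highest with 805.4 ± 74.94 and Phka1 lowest with 29.5 ± 3.813.

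Beyond the 42 genes, 93 further genes of these pathways were listed, of which 78 were tested. Of these, 5 were called higher and 5 lower, or 6.41% in each direction, beside 6.31% higher and 4.74% lower over all genes tested. The shares called were thus close to or little above the background, and the median log2 fold change was 0.00. Pdk4 is a pyruvate dehydrogenase kinase that rises in muscle when fatty acids are the main fuel. Its normalized counts were 293.1 to 385.5 in CON, with a median of 338.6, and 433.8 to 647.4 in PEA, with a median of 468.3. Every PEA library was above every CON library, and the log2 fold change was 0.56 (SE 0.10, adjusted p = 0.00339). Pdk4 was the only gene of the 78 without overlap, beside 2.53% of all genes higher and 1.81% lower without overlap. Pdk4 was called without each library in turn (0.47 to 0.60).

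Other called genes around pyruvate were lower. Mpc1, a subunit of the mitochondrial pyruvate carrier, was at 833 to 1158 in CON and 684.9 to 833.1 in PEA (-0.30, SE 0.07, adjusted p = 0.0172). Its partner Mpc2 had -0.18 (SE 0.07, adjusted p = 0.0971). Slc16a3, the lactate exporter MCT4, was at 714.8 to 1261 and 635.7 to 844.5 (-0.42, SE 0.11, adjusted p = 0.0224). The groups overlapped for both genes, for Mpc1 by a single value.

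In the citric acid cycle and its branches the called genes went both ways. Sdhc and Sdhd, the membrane subunits of succinate dehydrogenase, fell by 0.17 and 0.20 on the log2 scale (SE 0.05 for both, adjusted p = 0.0444 and 0.0266). Suclg2, the GTP-forming subunit of succinyl-CoA ligase, rose by 0.21 (SE 0.06, adjusted p = 0.0213), while Sucla2, its ATP-forming counterpart, had -0.15. Pck2, mitochondrial phosphoenolpyruvate carboxykinase and a known target of the amino acid response, was at 639.7 to 1315 in CON and 1106 to 1469 in PEA (0.55, SE 0.13, adjusted p = 0.0154). Stbd1, which tethers glycogen to membranes, rose by 0.41 (SE 0.10, adjusted p = 0.016) and Tkt, transketolase of the pentose phosphate branch, by 0.19 (SE 0.06, adjusted p = 0.0436). Egln3, a prolyl hydroxylase that marks hypoxia-inducible factors for decay and is itself one of their targets, fell by 0.28 (SE 0.07, adjusted p = 0.017).

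Of 13 regulators tested, Egln3 was the only one called. The calls of Pck2, Stbd1, Mpc1 and Egln3 were made without each library in turn. Without CON replicates 3 and 6, Stbd1 (0.34, adjusted p = 0.0591), Slc16a3 (-0.28, adjusted p = 0.0961), Suclg2 (0.18, adjusted p = 0.08), Sdhc (-0.14, adjusted p = 0.164), Sdhd (-0.15, adjusted p = 0.111) and Tkt (0.19, adjusted p = 0.0914) were not called, and Pdk4, Pck2, Mpc1 and Egln3 were. Those of Sdhd and Slc16a3 were lost without CON replicate 5 or 6 or PEA replicate 4, 5 or 6 (adjusted p 0.0572 to 0.0696 and 0.0505 to 0.0593), and that of Suclg2 without CON replicate 6 or PEA replicate 6 (0.0584 at most). The call of Sdhc was lost without CON replicate 3, 4 or 6 or any PEA replicate but 3 (0.0666 to 0.103). That of Tkt was lost without any library but CON replicate 2 and PEA replicate 4 (0.0611 to 0.0985). Of the 7 alternatives other than leaving out a single library, Tkt was called in 4 and Sdhc in 5.

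**Figure D5:**
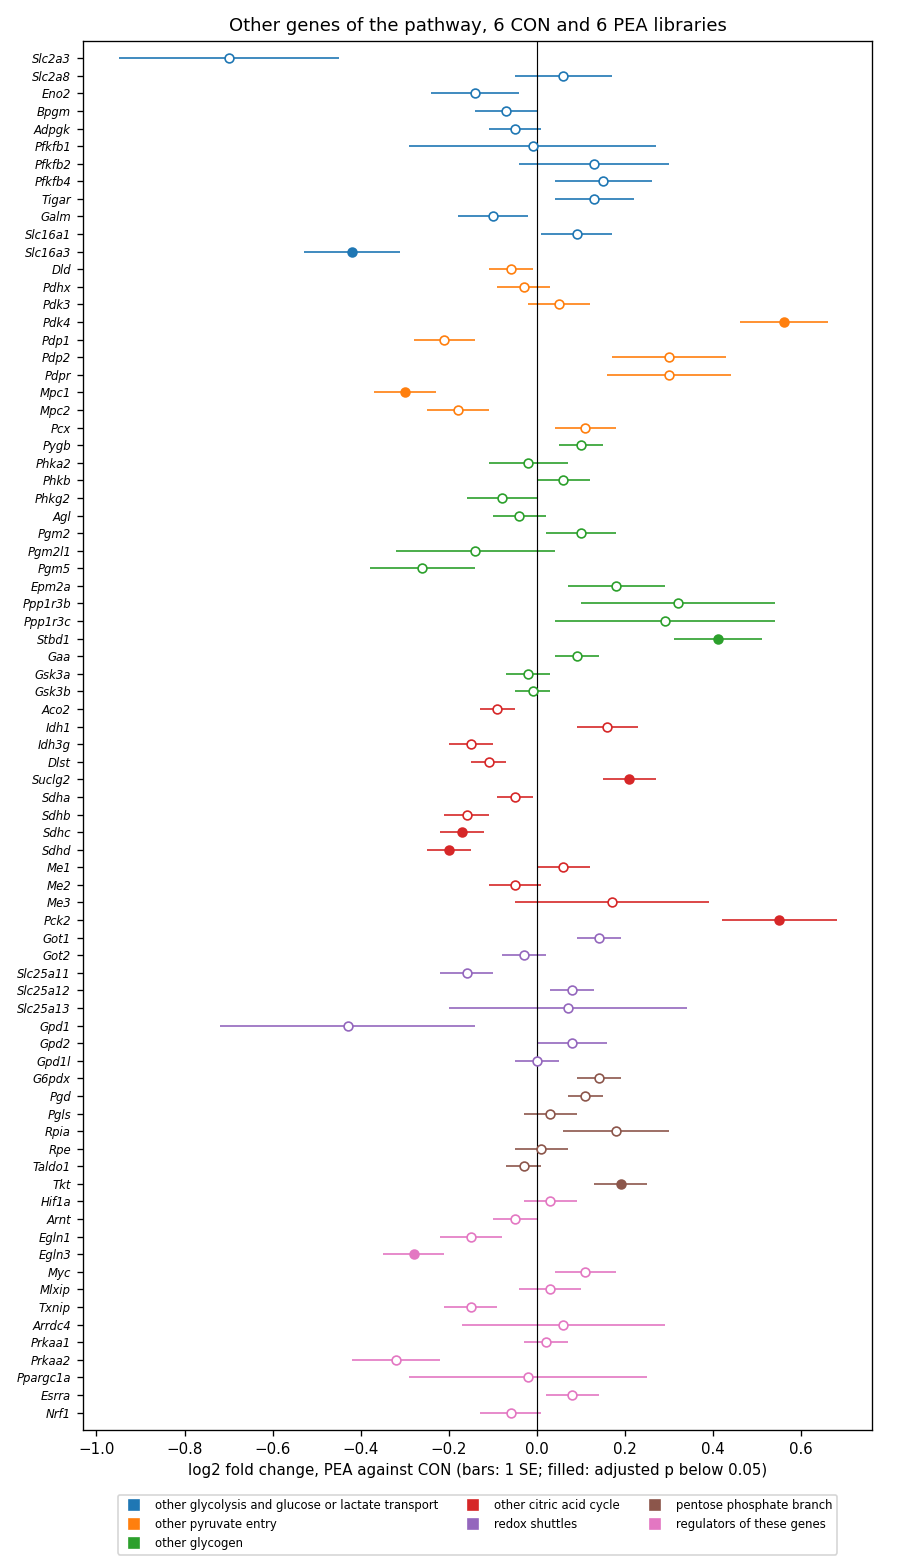
Log2 fold change of PEA against CON (x axis) for the 78 further pathway genes tested (y axis), coloured by group, with bars of 1 SE and filled points for an adjusted p below 0.05. Filled points lie on both sides, with Pdk4 at 0.56 and Slc16a3 at -0.42.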

How the data were processed

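RNA-seq of 12 libraries was analysed, 6 CON and 6 PEA. The labels list a further run of PEA replicate 2, which shares its values and was not counted apart. The authors enriched poly-A RNA (NEBNext Ultra II RNA kit, strand not stated), aligned reads to mm39 with STAR, quantified Ensembl genes in Partek Flow and deposited an estimated count for each gene. The other deposited table is a signal on a linear scale, each library's counts over its DESeq2 median-ratio factor (normalized counts here). Both tables end at identifier ENSMUSG00000089774, and 2240 protein-coding genes with higher identifiers were not analysed here. Of the values above 0, 70.2% were not whole (tolerance 0.01). Per-library totals were 12354845 to 50397444.

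Estimated counts were rounded and tested with edgeR 4.0.16 (quasi-likelihood, TMM factors of 0.988 to 1.02, default filter) in R 4.3.3 over 13142 genes, with an adjusted p threshold of 0.05. Isoform ratios used estimated counts plus 0.5 and all 924 arrangements of the libraries, for which the smallest p is 0.00216. Lengths are merged exons of GENCODE (GRCm39). Alternatives were DESeq2 1.42.0, limma 3.58.1 with voom, other size factors, no filter, log2 of normalized counts plus 1 in limma, a replicate block, each library left out, a pseudocount of 5 and, added after seeing the data, CON replicates 3 and 6 left out. The scripts were tested on simulated data. Tables and figures used Python 3.11.15, numpy 2.4.6, pandas 2.3.3 and matplotlib 3.10.9.

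The members and all lists were chosen with earlier results of these data known. Genes named are all members, the pathway genes with an adjusted p below 0.05 (at most 12), partners in pairs and defining markers, and others where stated. Replicate numbers did not pair the libraries (correlations of same-numbered libraries from -0.083 to 0.065).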

Additional observations from a re-analysis of the deposited data

Results flagged for a closer look

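In 5 of 104 tests for a library far from the other 5 of its group (42 genes and 10 ratios in both groups), the gap exceeded Dixon's critical value of 0.625 times the range. Chance flags about 1 in 20 groups. Pdk1 was at 2045 normalized counts in PEA replicate 3 (others 1713 to 1815), Phka1 at 274.8 in CON replicate 4 (366.0 to 407.3) and Sucla2 at 3039 in CON replicate 3 (2660 to 2791). The log2 ratio of Pfkm to Pfkp was 1.211 in PEA replicate 4 (1.464 to 1.576), and that of Ldha to Ldhb was 6.762 in PEA replicate 2 (6.308 to 6.448). These fell in 5 different libraries.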

How the results depend on the processing

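Over all genes, 1452 were called, and between 778 (PEA replicate 6 left out) and 2203 (CON replicate 2 left out) when single libraries were left out. Members called lower (5) then ranged from 1 to 12 (2.16% and 7.35% of all genes called lower in those 2 fits). Members called higher (0) ranged from 0 to 1, and calls among the other pathway genes (10) from 5 to 18. DESeq2 called 11 members lower and 2 higher, and limma-voom 1 higher, while no filter and normalized counts in limma each gave 4 lower (3.3% and 4.83% of all genes). Without CON replicates 3 and 6, chosen after seeing the data, 841 genes, 2 members lower, 1 member higher and 6 other pathway genes were called, with fewer samples in the fit. In that setting the log2 fold changes of Slc2a1 (0.06), Pfkl (0.01), Aldoc (0.11) and Phka1 (0.04) were above zero, and the log2 ratios were 0.00 for Hk2/Hk1, -0.17 for Pfkm/Pfkl, -0.34 for Pfkm/Pfkp (adjusted p = 0.0476), -0.18 for Eno3/Eno1 and 0.14 for Ldha/Ldhb. Phka1 was at 0.00 for normalized counts in limma. With single libraries left out the sign turned for Slc2a1 (-0.07 to 0.02), Phka1 (-0.07 to 0.05) and Phka2 (-0.06 to 0.05), and for the log2 ratios of Slc2a4/Slc2a1 (-0.38 to 0.00), Pfkm/Pfkl (-0.10 to 0.08), Aldoa/Aldoc (-0.24 to 0.02), Eno3/Eno1 (-0.11 to 0.08), Ldha/Ldhb (-0.10 to 0.09) and Phka1/Phka2 (-0.07 to 0.10). It did not turn for Pfkm/Pfkp (-0.33 to -0.21), Pgam2/Pgam1 (-0.68 to -0.46) or Pygm/Pygb (-0.48 to -0.35). Causes were not tested. Slc2a4 and Aldoc had fewer than 100 counts in at least 1 library, and SEs of 0.38 and 0.29.

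With the replicate block in edgeR, 7 members were called lower (4.77% of all genes), Tpi1 and Ldha added to the 5. For the ratios, sign flips within replicate numbers gave an adjusted p of 0.208 for both Pgam2/Pgam1 (-0.58) and Pygm/Pygb (-0.41). The smallest p such flips allow is 0.0312, so over 10 pairs a single ratio could not pass the threshold.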
